A study of Homo sapiens with 12 samples.

Results

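Depletion of CARM1 was measured by RNA-seq in HEK293T cells, which derive from HEK293, a line of human embryonic kidney cells, as 2 libraries of cells transfected with siCARM1 against 2 libraries transfected with the control siRNA siCTL. These 4 libraries were chosen by the treatment in their labels, out of 12 libraries in all. The other 8 libraries came from cells transfected with siCHD4, siHDAC2, siGATAD2A or siKDM1A, 2 each. They were used to ask which changes were not shared to the same extent by the loss of subunits of the NuRD complex. Depletion of those targets is not given here, so weak depletion and a change not shared cannot be told apart. The labels name HEK293T for all 12 libraries, while the text of the study names HEK293 cells for its RNA-seq. All 12 were transfected with an siRNA by lipofection according to the methods of the study, and carry no other treatment in their labels. The methods list a pair of siCARM1 sequences and do not say which of them was used for these libraries, so effects of the loss of CARM1 and other effects of that siRNA cannot be told apart. The labels do not say whether the 2 libraries of a group came from separate cultures. The p-values thus measure a spread within groups, estimated over all 12 libraries, that may be technical. Sequencing was done at either of 2 companies, and which library went to which is not given, so a batch of that kind could not be taken into account.

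CARM1 (PRMT4) is a protein arginine methyltransferase that is brought to genes as a coactivator of nuclear receptors and other transcription factors, where it methylates histone H3, the acetyltransferases CBP and p300 and other coregulators. It has also been studied for its part in cell cycle genes regulated by E2F factors. NuRD joins the nucleosome remodeller CHD4 with the deacetylases HDAC1 and HDAC2, the MTA and GATAD2 proteins and, in some forms, the demethylase KDM1A, and is best known for repression. The comparisons here address which genes depend on CARM1 and which of them are not changed in the same way by loss of a NuRD subunit.

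The 4 compared libraries held 19308315 to 27810036 counted read pairs on the strand that the directional kit reads. Levels are given as counts, or as CPM, counts per 1000000 counted pairs of the library after TMM scaling, with scaling factors of 1.01 in all 4 libraries. Reads with several locations were 6.12% to 10.6% of these libraries. A gene was called lower or higher if edgeR's quasi-likelihood test gave it a p of at most 0.05 after Benjamini-Hochberg adjustment and its fold was 1.2 or more. Tested were the 12830 coding genes whose mean FPKM in any of the groups exceeded 0.5. Errors are standard errors (SE) of the log2 fold change, with n = 2 libraries in each group. The 2 siCARM1 libraries differed from each other more than those of any other group. The chi-square of their counts was 4.97 times its degrees of freedom, against 2.67 for siCTL and 1.77 to 3.17 for the others. Spread was estimated over all 12 libraries, so this larger spread does not enter the errors and p-values in full.

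The targeted gene was low in both siCARM1 libraries. CARM1, on chromosome 19 from 10982229 to 11033751 in GRCh37, had 127 and 125 CPM in the siCTL libraries and 25.2 and 23.4 CPM in the siCARM1 libraries, from 661 and 490 counts. Its log2 fold change was -2.37 (SE 0.059, adjusted p = 6.22e-24), and its level in the other knockdowns was -0.10 to 0.26 from siCTL on the log2 scale. The labels of the siCARM1 libraries and the level of their target thus match.

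The kinase CDK4, which drives the G1 phase together with D cyclins, and the transcription factor E2F1, which acts on genes of S phase entry, were both lower with siCARM1. CDK4 had 320 and 322 CPM with siCTL and 222 CPM in each siCARM1 library, a log2 fold change of -0.53 (SE 0.041, adjusted p = 6.02e-12). E2F1 fell from 134 and 143 CPM to 93.2 and 88.7 CPM, a log2 fold change of -0.61 (SE 0.053, adjusted p = 1.01e-10). For neither gene did the siCARM1 libraries overlap the siCTL libraries. Such separation is common, since of 12830 tested genes 4383 had both siCARM1 libraries below both siCTL libraries and 4558 had both above. CDK4 was within 0.10 of siCTL on the log2 scale in each other knockdown, with values of 0.01 (siCHD4), 0.02 (siHDAC2), -0.05 (siGATAD2A) and -0.09 (siKDM1A). E2F1 was at -0.02 and 0.01 in siCHD4 and siHDAC2, at 0.53 in siGATAD2A and at -0.22 in siKDM1A. Both genes were lower in siCARM1 than in siCTL and than in each other knockdown when all 5 differences were tested, with a smallest log2 difference of -0.44 for CDK4 and -0.39 for E2F1.

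CDKN1A, which encodes the CDK inhibitor p21, was lower as well, but not apart from the other knockdowns. Its CPM of 262 and 279 with siCTL became 150 and 136 with siCARM1, a log2 fold change of -0.92 (SE 0.048, adjusted p = 5.00e-16). The siCHD4 and siGATAD2A values, which share the same siCTL libraries, were -0.84 and -0.92, and those of siHDAC2 and siKDM1A were -0.21 and -0.18. In the plot of CPM by library, CARM1, CDK4 and E2F1 are at their lowest in siCARM1, while CDKN1A is at a like level in siCARM1, siCHD4 and siGATAD2A.

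**Figure D1:**
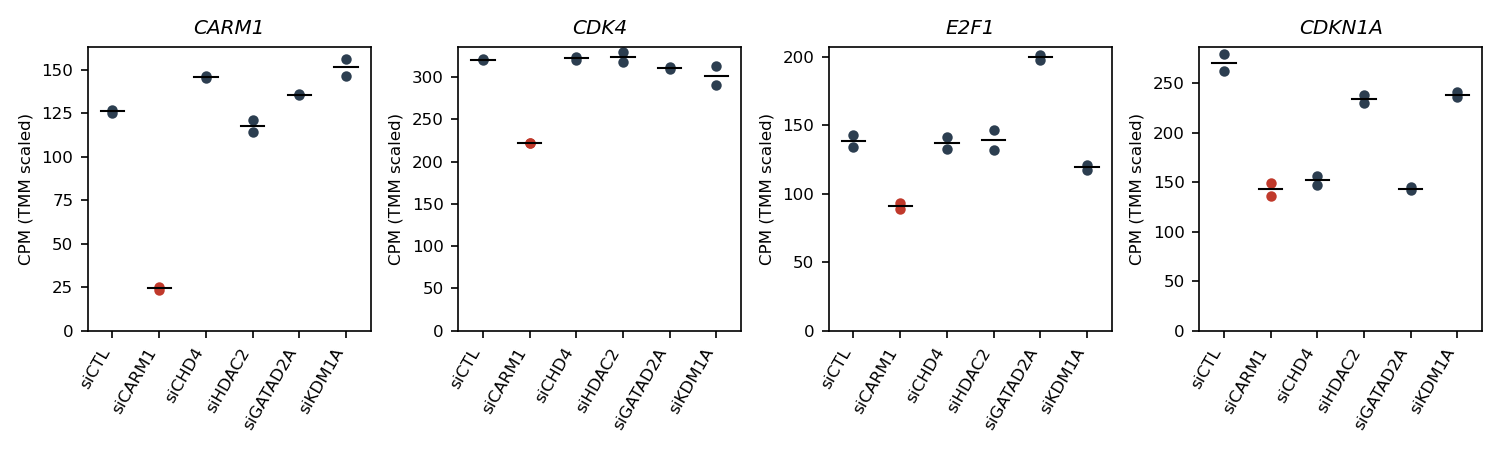
CPM (y axis, TMM scaled, from 0) of CARM1, CDK4, E2F1 and CDKN1A in each of the 12 libraries, by siRNA (x axis), with a point per library, a bar at the mean and siCARM1 in red. CDK4 is at 222 CPM in both siCARM1 libraries, below every other library, whereas CDKN1A is at 150 and 136 CPM there, beside the siCHD4 and siGATAD2A libraries.

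The promoters of these 2 cell cycle genes are shown because they carry several copies of the letters bound by MYC and related factors (E-box, CACGTG) or by E2F factors (TTTNNCGC). In the RefSeq promoter of CDK4, from 250 bases before to 50 bases after the start in GRCh38.p14, the E-box was found 3 times on the minus strand of chromosome 12. The capitals mark the match and the number is the distance of its leading base from the gene's start.
CDK4 at -216, chr12:57752510-57752537: tgtcaagcggtCACGTGtgatagcaaca
CDK4 at -196, chr12:57752490-57752517: tagcaacagatCACGTGgctgccatcgc
CDK4 at -101, chr12:57752395-57752422: tgggtggcggtCACGTGcccagaacgtc

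The promoter of E2F1, on the minus strand of chromosome 20, held 4 matches to the E2F letters when both strands were read, of which the last 3 lie within overlapping windows.
E2F1 at -122, chr20:33686489-33686518: ccgggtccggcGCGTTAAAgccaataggaa
E2F1 at -33, chr20:33686400-33686429: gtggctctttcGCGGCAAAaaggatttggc
E2F1 at -20, chr20:33686387-33686416: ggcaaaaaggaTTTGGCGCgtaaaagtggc
E2F1 at -14, chr20:33686381-33686410: aaggatttggcGCGTAAAAgtggccgggac

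The same letters were searched in all promoters. Of the 10395 tested genes with a RefSeq promoter, matched by symbol, 10.67% held the E2F letters and 10.17% the E-box on either strand. Among genes lower with siCARM1 these shares were 7.995% and 8.875%, and among genes higher they were 8.724% and 10.29%. Among genes lower than in siCTL and each other knockdown, which include CDK4, E2F1 and NEU1, they were 10.92% and 15.13%, and among those higher 6.557% and 4.918%. A match describes the sequence only.

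Across all 12830 coding genes, 1856 were lower and 1912 higher with siCARM1, which is 14.5% and 14.9% of the genes tested and 29.4% in either direction. Most changes were small, with a median fold of 1.35 in both directions, and the median log2 fold change of all tested genes was 0.01. A fold over 2 was reached by 125 lower and 174 higher genes, and a fold over 4 by 5 lower and 24 higher genes. In the plot of fold against level, the largest changes are increases of genes that siCTL cells barely express.

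**Figure D2:**
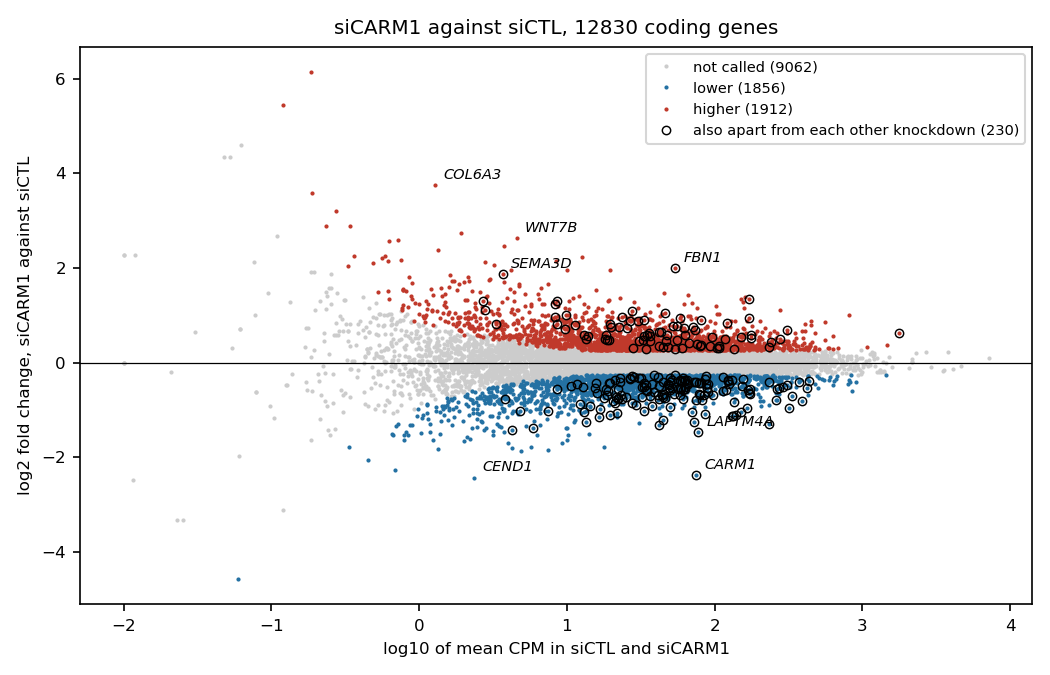
Log2 fold change of siCARM1 against siCTL (y axis) by log10 of the mean CPM of both groups (x axis), with a point per coding gene. Blue points are the 1856 genes called lower, red points the 1912 called higher, and black circles the 230 genes also apart from each other knockdown. Genes far above 0 sit mostly at the left, at low levels, and CARM1 is the lowest of the circled genes.

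Among the genes with a mean of at least 50 counts in their higher group, the 10 largest increases included secreted and matrix proteins. COL6A3, a chain of collagen VI, had 3 and 4 counts with siCTL and 73 and 42 counts with siCARM1, too few in siCTL for a fold to be given. WNT7B, a WNT ligand, had 22 and 29 counts against 207 and 165, a log2 fold change of 2.62 (SE 0.201, adjusted p = 4.20e-12). CYP24A1, the enzyme that inactivates vitamin D, had 7 and 13 counts against 88 and 71, a log2 fold change of 2.74 (SE 0.315). In all 3 genes the siCARM1 libraries were far above both siCTL libraries. The BMP antagonists NOG and GREM1 were higher by 2.47 (SE 0.246) and 2.14 (SE 0.144) on the log2 scale, and BMP2, a ligand that they bind, by 1.21 (SE 0.072). THBD, the thrombin receptor of vessel walls, ADAMTS5, a protease of cartilage matrix, the elastin-associated glycoprotein EMILIN2 and the little studied zinc finger gene ZNF843 had log2 fold changes of 2.12, 2.05, 2.23 and 2.38. Apart from FBN1, described below, none of these genes was called higher in siCARM1 than in each other knockdown. WNT7B, for example, had log2 fold changes of 3.98 (siCHD4), 1.52 (siHDAC2), 2.36 (siGATAD2A) and 2.61 (siKDM1A), against the same siCTL libraries.

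The largest decreases after CARM1 included genes of neurons and membranes at low to moderate levels. CEND1, a protein of neuronal precursors that leave the cell cycle, had 60 and 101 counts with siCTL and 22 and 13 counts with siCARM1, a log2 fold change of -2.43 (SE 0.301, adjusted p = 8.21e-08). SCAMP5, a secretory carrier membrane protein, was better covered, with 26.6 and 28.8 CPM against 7.08 and 9.30 CPM, a log2 fold change of -1.77 (SE 0.113). RIMKLA, which makes the dipeptide N-acetylaspartylglutamate, fell from 11.5 and 11.8 CPM to 3.85 and 2.58 CPM. These groups did not overlap for any of the 3 genes, but none of them was apart from each other knockdown, and SCAMP5 had -1.76 in siCHD4. VWA5A, ENTPD8, TMEM198, CRIP2 and FAIM2 had log2 fold changes of -1.86, -1.80, -1.79, -1.69 and -1.65, and ENSG00000286190, whose exons lie wholly within those of NLRP1, had -1.70.

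To find changes that loss of the NuRD subunits did not share to the same extent, siCARM1 was compared with siCTL and each of the 4 other knockdowns. All 5 comparisons came from the same fit. A gene was called when the largest of the 5 p-values passed the adjustment and all 5 folds were at least 1.2 in the same direction. A called gene can still change in that direction, by less, in another knockdown. This test called 152 genes lower (1.18% of those tested) and 78 higher (0.608%), which is 8.19% of the genes lower than in siCTL and 4.08% of those higher. Their median log2 fold change against siCTL was -0.57 and 0.58, and 22 lower and 10 higher genes reached a fold of 2. The same test gave 1288 lower and 1181 higher genes for siCHD4, 424 and 178 for siGATAD2A, 68 and 125 for siKDM1A, and 42 and 11 for siHDAC2.

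The named genes that were lower are given with their known roles. SNX12, a sorting nexin of endosomes, had 101 and 102 CPM with siCTL and 42.4 and 42.7 CPM with siCARM1, and its log2 fold changes in the other knockdowns ran from -0.20 to -0.09. With siCARM1 the log2 fold change was -1.26 (SE 0.054, adjusted p = 3.52e-18). LAPTM4A, a membrane protein of lysosomes, had 109 and 117 CPM against 38.2 and 44.2 CPM. The libraries of the 2 groups were far apart for both genes, and the log2 fold change of LAPTM4A was -1.46 (SE 0.061). LAPTM4A was also lower in siKDM1A, at -0.53, so that its smallest difference was -0.93.

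ITPK1, a kinase of inositol phosphates, GIPC1, an adaptor for myosin VI and receptor trafficking, FBXO33, a substrate adaptor of ubiquitin ligases, and EID1, an inhibitor of p300 acetyltransferase, were lower by like amounts. ITPK1 had a log2 fold change of -1.31, GIPC1 -1.12, FBXO33 -1.15 and EID1 -0.93, and the smallest of their differences ran from -1.05 for ITPK1 to -0.86 for EID1. DHRS2, a short-chain dehydrogenase, was lower than in each other group at -1.21 (SE 0.060), and had log2 fold changes of 2.59 in siCHD4 and 0.52 in siGATAD2A. IQCN, the last of the 10 with the largest difference, had few counts, with 95 and 96 against 73 and 59.

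On the higher side, the largest difference was in SEMA3D, a secreted guidance cue. It had 32 and 31 counts with siCTL and 138 and 132 counts with siCARM1, a log2 fold change of 1.86 (SE 0.223, adjusted p = 4.34e-08), while the other knockdowns had 0.30 to 0.48. FBN1, which encodes the microfibril protein fibrillin-1, was far more abundant, with 21.2 and 22.1 CPM with siCTL and 86.9 and 85.8 CPM with siCARM1. Its log2 fold change was 1.99 (SE 0.066, adjusted p = 9.00e-21), against 0.02 in siCHD4, 0.31 in siGATAD2A, 0.76 in siKDM1A and 1.06 in siHDAC2. Both siCARM1 libraries of FBN1 lay above every other library, which its choice by this test makes likely.

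The receptor tyrosine kinase KIT and its ligand KITLG (stem cell factor) were both among these genes. KIT had 322 and 348 counts with siCTL and 716 and 622 counts with siCARM1, and KITLG had 505 and 581 against 956 and 830 counts. Their log2 fold changes were 0.76 (SE 0.094) and 0.48 (SE 0.074), while in the other knockdowns KIT had 0.12 to 0.20 and KITLG -0.20 to 0.19. DNM1, a dynamin of endocytosis, and NAAA, a lysosomal amidase of fatty acid ethanolamides, were higher by 0.76 and 0.81, and the sodium bicarbonate cotransporter SLC4A4 by 1.24. ANKRD63, ZCWPW1, IL17RE and PHF7 complete the 10, and for these 4, for SLC4A4 and for IQCN the test against each other knockdown lost significance under at least 1 alternative, as described with the processing.

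**Figure D3:**
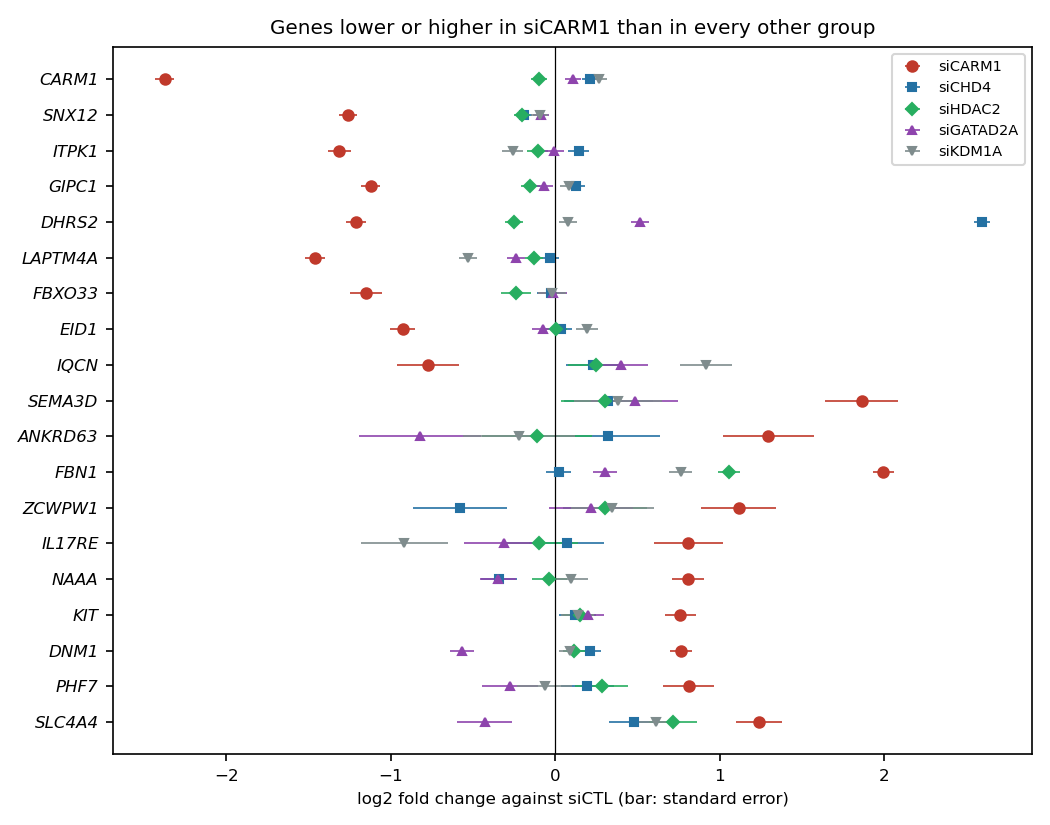
Log2 fold change against siCTL (x axis, bars are standard errors, n = 2 libraries in each group) of 9 lower and 10 higher genes with the largest smallest difference between siCARM1 and the other groups. Red circles are siCARM1 and the other symbols the other 4 knockdowns. The siCARM1 value lies at the outer edge of each row, as the test that chose these genes required, and DHRS2 is at -1.21 in siCARM1 and 2.59 in siCHD4.

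Among the lists with at least 10 tested members, genes of the extracellular matrix and its receptors had the largest share of higher genes. Of 52 tested collagens, laminins, integrins and other matrix genes, 28 were higher and 6 lower, against 14.9% and 14.5% of all genes, and their median log2 fold change was 0.30 against 0.01 over all genes. By kind, 12 of 19 collagens, 5 of 9 laminins, 5 of 13 integrins and 6 of 11 others were higher. The list medians in the other knockdowns, over the same siCTL libraries, were 0.13 (siCHD4), 0.15 (siHDAC2), -0.22 (siGATAD2A) and 0.21 (siKDM1A). Under all alternatives run for this list, 23 to 28 members were higher and 6 or 7 lower. Matrix genes tend to be long, and with the correction for gene span the list had 23 higher members and a median of 0.24.

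Besides FBN1, 5 matrix genes were higher than in each other knockdown. They were LAMA1, a laminin alpha chain, at 0.94 (SE 0.060), COL4A4 at 0.75 (SE 0.101), ITGA1, the alpha chain of a collagen receptor, at 0.64 (SE 0.076), COL5A2 at 0.56 (SE 0.077) and COL4A2 at 0.44 (SE 0.044). COL5A2 had -0.94 in siCHD4 and -1.32 in siGATAD2A. The basement membrane collagens come as pairs of genes on opposite strands. COL4A3 and COL4A4, with 170 bases between them, had 3.28 and 3.45 CPM against 7.58 and 8.49 CPM for COL4A3 and 16.5 and 13.1 against 24.5 and 24.9 CPM for COL4A4. COL4A1, named after its value was seen, and COL4A2, which share 1346 bases, had 96.2 and 92.9 against 162 and 156 CPM and 206 and 205 against 288 and 269 CPM. In all 4 genes both siCARM1 libraries were above both siCTL libraries, as in 4558 of all 12830 tested genes. COL12A1, a collagen on the surface of fibrils, was higher by 1.42 (SE 0.058), but its value in siCHD4 was 1.93. ITGA7, an integrin chain for laminin named after its value was seen, was the lowest, at -0.74 (SE 0.064), and the fibroblast collagen COL1A1 was lower at -0.47 (SE 0.056). The matrix protease MMP14, which is kept with the epithelial and mesenchymal genes, was lower than in each other group, at -0.84 (SE 0.091).

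**Figure D4:**
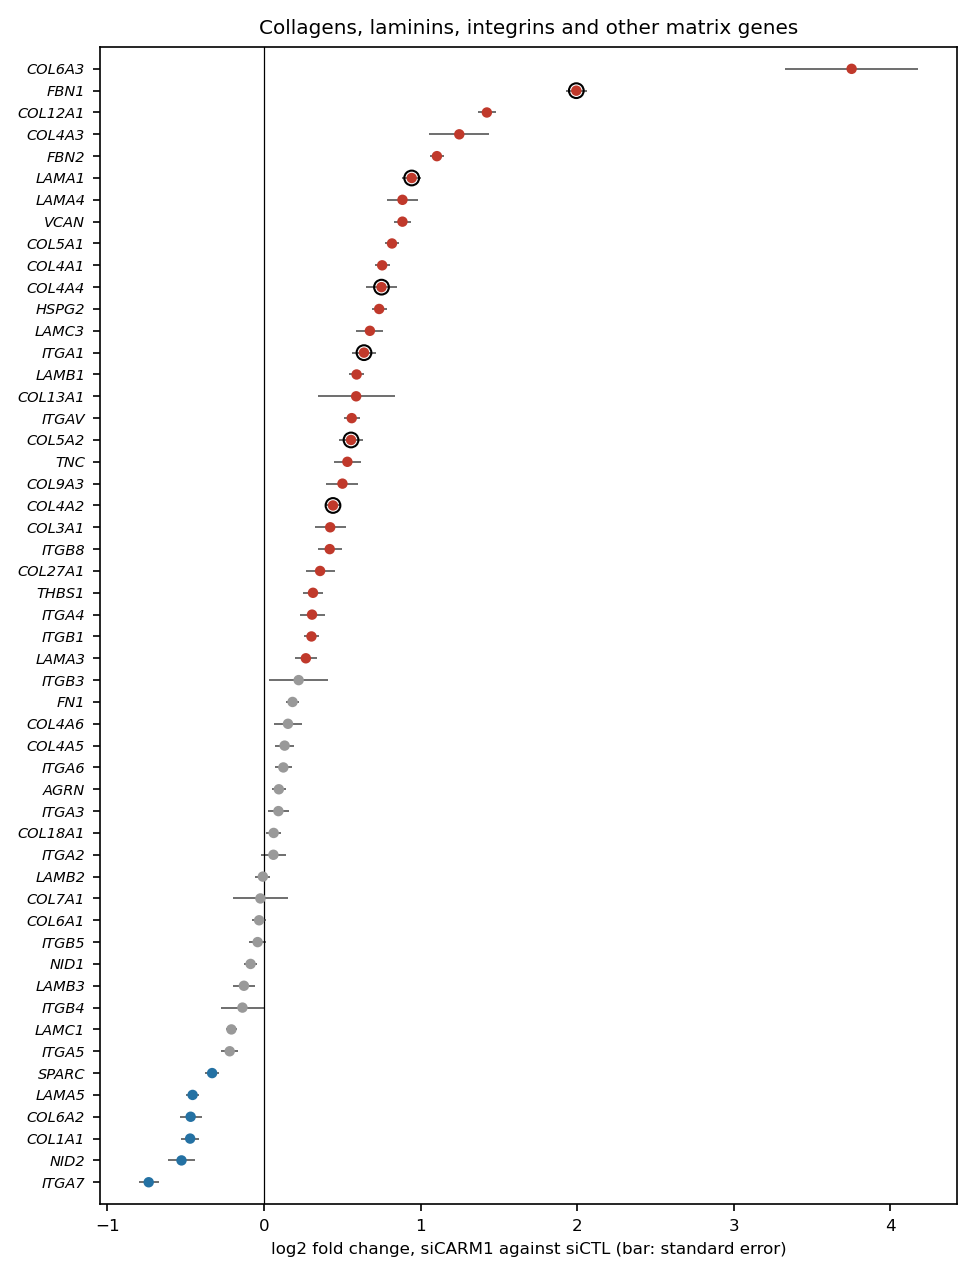
Log2 fold change of siCARM1 against siCTL (x axis, bars are standard errors, n = 2 libraries in each group) of the 52 tested matrix genes. Red points were called higher (28), blue points lower (6) and grey points were not called (18), and black circles mark the 6 that were also higher than in each other knockdown. COL6A3, at the top, rests on 3 and 4 counts with siCTL.

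The cell cycle lists held genes of both directions. The list of G1 cyclins, CDKs, E2F and RB family members and CDK inhibitors also holds CDC25A, CKS1B and SKP2. Of its 32 tested genes 8 were lower and 7 higher, with SKP2 (0.35) among the higher ones. CCND3 was lower, with 70.9 and 75.7 CPM against 48.6 and 43.8 CPM (log2 fold change -0.67, SE 0.061), and CCND2 was higher, with 375 and 376 CPM against 561 and 598 CPM (0.63, SE 0.038). CCND2 and CCND3, D cyclins that bind the same kinases, thus changed in opposite directions. CCND1, another D cyclin named after its value was seen, was not called, at 0.14 (SE 0.040). CDK6, the close relative of CDK4, was higher at 0.60 (SE 0.055), and 0.72 in siGATAD2A. CCNE1, the cyclin that binds CDK2 at the start of S phase, was lower than in each other group at -0.35 (SE 0.076), from 31.0 and 29.3 CPM to 23.3 and 24.0 CPM.

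Of the 18 tested cell cycle genes for which the study had made primers, 7 were lower (38.9%) and 3 higher (16.7%). This list was picked in the study with these samples in hand, so its count is not independent evidence of a direction. Besides CDK4 and E2F1, the phosphatase CDC25B, an activator of CDKs at the entry to mitosis, was lower at -0.54 (SE 0.040), with -0.46 in siCHD4 and -0.68 in siGATAD2A. Among 53 genes of the G2 phase and mitosis 11 were lower and 2 higher, with a median of -0.11, and 1 was higher without siCTL replicate 2 or siCARM1 replicate 2. UBE2C, the ubiquitin-conjugating enzyme of the anaphase-promoting complex, was the member lower than in each other knockdown, with 90.7 and 88.9 CPM against 67.2 and 65.9 CPM (-0.43, SE 0.052). The lower and higher shares of this G2 and mitosis list were 20.8% and 3.77%, against 14.5% and 14.9% of all genes. Of 43 S phase genes 1 was lower (2.33%) and 7 higher (16.3%). The S phase split depends on such choices, with 6 lower and 4 higher members after a correction for GC content, 4 lower without siCTL replicate 2, 3 without siCARM1 replicate 2 and 2 without siCTL replicate 1.

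Targets of p53 changed in both directions, with 13 lower (28.3%) and 9 higher (19.6%) of 46, against 14.5% and 14.9% of all genes. GDF15, a stress cytokine, was lower from 102 and 116 counts to 81 and 36, and TP53INP1, which promotes p53-dependent death and autophagy, at -0.97 (SE 0.061). The tetraspanin CD82 was lower at -0.81 (SE 0.106). None of the lower p53 targets was apart from each other knockdown, and TP53INP1 had -1.10 in siCHD4 and -1.26 in siGATAD2A.

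Genes induced by interferon and genes of antigen presentation went down where they were called. Of 31 interferon-induced genes 12 were lower (14.5% of all genes were) and none was higher, and the median was -0.20. ISG15, a ubiquitin-like modifier, had 12.4 and 13.1 CPM against 7.58 and 6.39 CPM (-0.86, SE 0.129), and CMPK2, a mitochondrial nucleotide kinase, had 13.5 and 14.7 against 8.57 and 8.54 CPM (-0.72, SE 0.119). IFIT3, a partner of RNA-binding IFIT proteins, was at -0.90 (SE 0.186). No member was apart from each other knockdown, and the medians of the list in siCHD4, siHDAC2, siGATAD2A and siKDM1A were -0.51, -0.21, -0.51 and -0.22. After corrections for GC content and gene span the list had 14 and 11 lower members and 3 higher ones in each case.

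Of 17 genes of antigen presentation and the immunoproteasome, 5 were lower and none higher, with 1 higher without siCARM1 replicate 1. Over all genes 14.5% were lower and 14.9% higher. HLA-B, which presents peptides to T cells, was lower than in each other group, with 92.6 and 97.9 CPM against 45.6 and 47.1 CPM (-1.04, SE 0.054), while siCHD4 had 0.87. Its reads can be shared with other HLA class I genes, and 30.738% of its exonic bases overlap the pseudogene DHFRP2, so its value is uncertain. PSMB9, a subunit of the immunoproteasome, was lower at -0.99 (SE 0.217), and -1.34 to -2.86 in the other knockdowns.

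Targets of NF-kappaB included several chemokines at very low levels. Of 26 tested members 10 were higher (38.5%) and 1 lower (3.85%), against 14.9% and 14.5% of all genes, with a median of 0.27. The lower count was 2 without siCTL replicate 2 or siCARM1 replicate 1. CXCL8, which attracts neutrophils, had 37 and 31 counts with siCTL and 171 and 141 counts with siCARM1 (1.95, SE 0.203), and CCL20 had 4 counts in each siCTL library and 29 in each siCARM1 library. The acute phase protein PTX3 had 22 and 15 counts against 74 and 53. CXCL8 was at 2.29 in siCHD4, 2.83 in siGATAD2A and 1.24 in siKDM1A, but at -0.62 in siHDAC2.

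Of 27 target genes of YAP and TAZ, the effectors of the Hippo pathway, 11 were higher (40.7%) and 4 lower (14.8%), and the median was 0.15. Over all genes 14.9% were higher and 14.5% lower. With the correction for gene span 8 members were higher, and with that for GC content 13. ANKRD1, a repeat protein of the nucleus and sarcomere, had 46.4 and 43.1 CPM against 88.4 and 87.9 CPM (0.98, SE 0.056), and CCN1, a matricellular protein, was higher at 0.73 (SE 0.047). Of 42 immediate early genes and feedback regulators of ERK signalling, 12 were higher (28.6%) and 6 lower (14.3%). The AP-1 subunit JUN was higher at 0.88 (SE 0.057) and the ERK phosphatase DUSP2 at 1.06 (SE 0.172), whereas the ETS factor ETV1 was lower at -1.63 (SE 0.342) from 40 and 34 counts to 13 and 15. ANKRD1 and DUSP2 were higher still in siCHD4, at 2.50 and 2.14.

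Among secreted ligands of development, the WNT and BMP lists were mixed. Of 46 WNT pathway genes 9 were lower (19.6%) and 5 higher (10.9%), against 14.5% and 14.9% of all genes. The inhibitor DKK1 was higher at 1.61 (SE 0.177) beside WNT7B, and NOTUM, an enzyme that inactivates WNT proteins, was lower at -0.86 (SE 0.225). Of 43 genes of the TGF-beta and BMP pathway 8 were higher (18.6%) and 5 lower (11.6%). SMAD9, a transducer of BMP signals, was higher than in each other group at 0.34 (SE 0.068), from 41.1 and 38.0 to 48.9 and 51.0 CPM, although with the correction for GC content its fold fell under 1.2 at a log2 value of 0.25. Of 34 Notch pathway genes 7 were lower (20.6%) and 4 higher (11.8%), with the ligand DLL1 at 1.01.

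Of 54 genes of the lysosome and autophagy 14 were lower (25.9%) and 4 higher (7.41%), against 14.5% and 14.9% of all genes, at a list median of -0.04 against 0.01 over all genes. NEU1, the lysosomal sialidase, was lower than in each other group. It had 182 and 186 CPM against 86.1 and 82.6 CPM, a log2 fold change of -1.12 (SE 0.047, adjusted p = 2.29e-18), and -0.26 to -0.41 in the other knockdowns. The promoter of NEU1 held an E-box, shown here because such sites occur in many lysosomal genes, on the minus strand of chromosome 6 of GRCh38.p14 with the match in capitals.
NEU1 at -126, chr6:31862931-31862958: tgctgcgtgatCACGTGggaggagatga

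RRAGD, a GTPase that activates mTORC1 at lysosomes, was lower at -0.72 (SE 0.059) and at -0.73 in siGATAD2A, and ATP6V1C1, a subunit of the proton pump, at -0.66 (SE 0.058).

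Of 38 genes of the integrated stress and unfolded protein response, 12 were higher (31.6%) and 8 lower (21.1%), against 14.9% and 14.5% of all genes. PSPH, which makes serine in its last step, was lower than in each other group, with 33.2 and 37.1 CPM against 19.8 and 19.4 CPM (-0.85, SE 0.078), and the other knockdowns had -0.11 to 0.05. PYCR1, a proline biosynthesis enzyme, was higher than in each other group at 0.37 (SE 0.056), with 14.137% of its exonic bases shared with MYADML2. CHAC1, which degrades glutathione, was lower at -1.23 (SE 0.232). Of 24 glycolysis genes 5 were lower (20.8%) and 4 higher (16.7%), with the lactate exporter SLC16A3 at -0.91. Of 21 hypoxia-inducible genes 5 were higher (23.8%) and 2 lower (9.52%), with LOX, which crosslinks collagen, at 0.86. In cholesterol and fatty acid synthesis 4 of 32 were lower and 4 higher (12.5% each).

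The counts of the next lists stand beside 14.5% lower and 14.9% higher over all genes. Of 77 cytosolic ribosomal proteins 4 were lower (5.19%) and none higher, at a median of -0.06. This count rests on single libraries, with 11 lower without siCTL replicate 2, 10 without siCARM1 replicate 1 and 2 without siCARM1 replicate 2, and with 2 and 1 higher without siCTL replicate 1 and without siCARM1 replicate 2. RPL22 was lower than in each other group, with 120 and 116 CPM against 54.8 and 55.8 CPM (-1.09, SE 0.052). Pseudogenes of ribosomal proteins can take up reads, so this value is uncertain in size. Of 53 subunits of respiratory complex I and ATP synthase 7 were lower and 5 higher, and 11 were lower without siCARM1 replicate 1. Among them NDUFC2 was lower than in each other group at -1.06 (SE 0.088), with 18.593% of its exonic bases shared with NDUFC2-KCTD14. Of 35 replication-dependent histone genes 7 were lower and 1 higher, at a median of -0.21, with 28 of them below 0. The lower count was 4 without siCTL replicate 1, 3 without siCARM1 replicate 2, 4 after the correction for GC content and 1 after that for gene span, where the median was -0.10. The higher histone gene H4C1, at 0.45 (SE 0.085), was higher than in each other group, and its near-identical copies make that uncertain.

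Of 11 tested genes in the list of protein arginine methyltransferases 2 were lower, CARM1 among them, and 3 higher. The list also holds CLNS1A (called higher, at 0.30), RIOK1 and WDR77, which are not methyltransferases themselves. With the correction for GC content 1 was higher, and the higher count also moved when siCARM1 replicate 1 was left out. Either siCTL replicate 1 or siCARM1 replicate 2, when left out, took the lower count to 1. All counts of this paragraph stand beside 14.5% lower and 14.9% higher over all genes. Apart from CARM1, PRMT6 was the arginine methyltransferase with the largest change, at 0.51 (SE 0.063), and it had 0.37 to 0.75 in the other knockdowns. Of 32 coactivator partners and substrates of CARM1 5 were higher and 2 lower, but 3 and 1 without siCARM1 replicate 2, and 1 was lower without siCTL replicate 2. NFIB, a transcription factor that CARM1 methylates, was higher than in each other group at 0.41, but at 0.21 after the correction for gene span, under the fold minimum. Of 17 NuRD subunits 4 were higher and 3 lower, but 2 and 4 without siCTL replicate 1. HDAC1 was higher at 0.41 (SE 0.041), from 210 and 211 CPM to 277 and 281 CPM, and had 0.31 to 0.52 in the other knockdowns. The lower subunits were MTA2 at -0.35 (SE 0.044), CHD4 at -0.32 (SE 0.071) and GATAD2B at -0.28 (SE 0.050). CHD4 and GATAD2B were chosen after their values were seen.

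The remaining lists are given by their counts beside the 14.5% lower and 14.9% higher of all genes. Of 29 nuclear receptors 8 were higher and 4 lower (2 lower with the correction for GC content), with the thyroid hormone receptor THRB at 0.85 and the oxysterol receptor NR1H3 at 0.79. Of 55 genes of DNA repair and checkpoints 9 were higher and 4 lower (7 and 8 lower with the corrections for GC content and gene span), with the kinase ATM at 0.60. Of 27 epithelial and mesenchymal genes 6 were higher and 2 lower (1 lower without siCTL replicate 2 or siCARM1 replicate 1), with the intermediate filament VIM at 0.87 (SE 0.039) and 0.81 in siCHD4. Of 26 neuronal genes 5 were higher and 4 lower, with the microtubule protein MAP2 at 1.27. Of 43 hnRNP and SR splicing factors 1 was higher and 4 lower, with 2 higher without siCARM1 replicate 1. Of 19 BCL2 family genes 2 were higher and 2 lower (4 lower without siCARM1 replicate 1), with the proapoptotic HRK at 1.96.

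**Figure D5:**
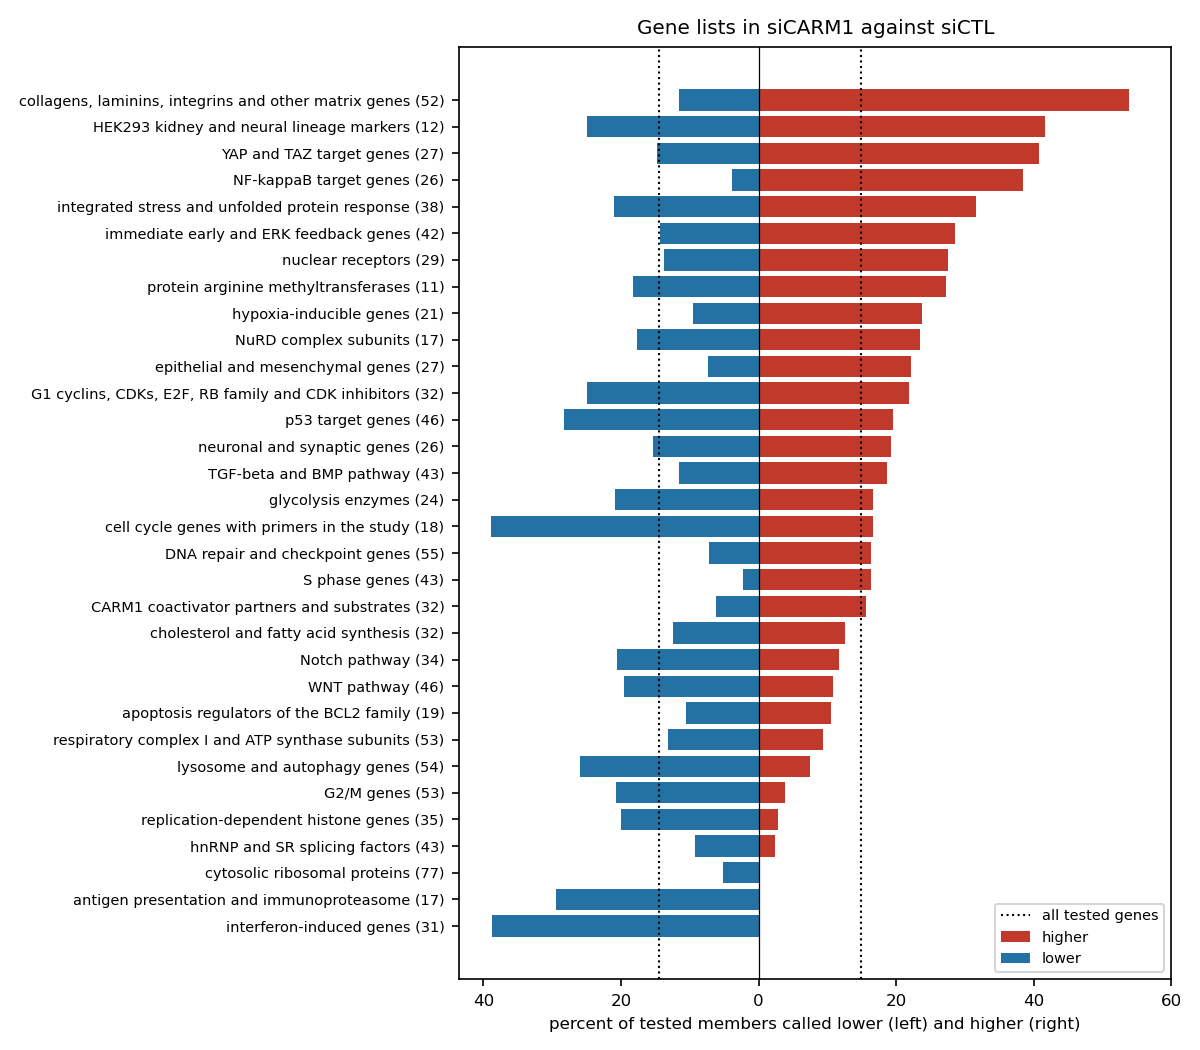
Percent of the tested members of each gene list (number tested in brackets) that were called higher (red, right) or lower (blue, left) with siCARM1, for lists with at least 10 tested members. Dotted lines mark the percent of all tested genes, 14.5 lower and 14.9 higher. Matrix genes extend furthest to the right, at 28 of 52, and interferon-induced genes reach far to the left with none called higher.

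Markers of other cell types were summed in each library to see whether any moved with siCARM1. The summed level of 10 fibroblast markers was 352.9 and 353.1 CPM with siCTL and 309.1 and 279.5 CPM with siCARM1. Single fibroblast markers went both ways, since of the 4 tested 2 were higher and 1 lower, at a median log2 fold change of 0.09. LUM, for example, had 46 and 60 counts against 154 and 120. The sum of 10 immune cell markers was 3.94 and 3.51 against 3.39 and 2.54 CPM. PTPRC, MS4A1 and NKG7 of immune cells and TIE1 of endothelium had no count in the 4 libraries, and 8 endothelial markers summed to 9.03 to 13.4 CPM. The 15 markers of the kidney and neural lineage of HEK293 summed to 2396 and 2388 CPM with siCTL and 3016 and 2952 CPM with siCARM1, and of the 12 tested 5 were higher and 3 lower (1 lower without siCTL replicate 1). Over all genes 14.5% were lower and 14.9% higher. VIM, a member of the kidney and neural sum, alone had 7283 and 8662 unscaled counts with siCTL against 19650 and 14734 with siCARM1. In bulk RNA, fewer cells of a type or cycle phase and less RNA per cell cannot be told apart.

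Genes of every biotype were fitted together to describe long noncoding RNAs. Of 3014 expressed lncRNA genes 152 were lower and 299 higher, which is 5.04% and 9.92%, and their median log2 fold change was 0.09. The higher count was 165 by DESeq2 and 186 without siCTL replicate 2. RENO1, a lncRNA of neuronal commitment, had 231 and 257 counts with siCTL and 122 and 62 with siCARM1 (-1.67, SE 0.150). ENSG00000287064, which is unnamed and lies on chromosome 1 from 154644069 to 154650821 in GRCh37, had 208 and 227 counts against 84 and 72 (-1.73, SE 0.148) and was lower than in each other knockdown. The largest increases were LINC01806, with 14 and 20 against 73 and 69 counts (1.81, SE 0.281), and LINC01366, with 16 and 17 against 72 and 50 (1.63, SE 0.299). Among lncRNA genes 6 were lower and 2 higher than in siCTL and each other knockdown.

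The changed genes differed in base composition and length. Genes lower with siCARM1 had a median GC content of 56.3% in their canonical transcript, against 48.8% for all tested genes and 45.9% for genes higher. When genes were split into 4 equal bins by GC content, 26.5% of the bin with the highest content were lower, against 8.18% of the bin with the lowest. The median gene span was 19194.5 bases for genes lower, 33187 for all and 56064 for genes higher, and 24.4% of the bin with the longest genes were higher, against 9.66% of the bin with the shortest. The median log2 fold change of the bin with the highest GC content minus that of the lowest was -0.18, and the same difference within siCARM1, replicate 1 minus replicate 2, was 0.20. In the other knockdowns against siCTL it was -0.08 to 0.05. For gene span the difference of the longest and shortest bins was 0.18 in siCARM1 and 0.05 to 0.14 in the other knockdowns, and within siCARM1, replicate 1 minus replicate 2, it was -0.08. The median span and GC content of genes apart from each other knockdown were 28705.5 bases and 52.0% (lower) and 91067.5 bases and 44.3% (higher). After a correction for GC content 1538 of the 1856 lower and 1524 of the 1912 higher genes were still called, and after a correction for gene span 1626 and 1510. Of the genes apart from each other knockdown, 123 of 152 lower and 57 of 78 higher were kept after the GC correction. With the correction for gene span 129 and 57 were kept. The part of base composition and length in single results was not tested further.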

How the data were processed

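Raw counts of read pairs on Ensembl genes, without normalization, were deposited per library, in the layout of STAR's gene counts. The submitters' processing notes name CASAVA 1.4, STAR 2.7.10 and hg19, while the methods of the study name TopHat, HOMER and DESeq2. The annotation release is not given in the sources used here. The study prepared directional libraries, and reverse-strand counts were used. Identifiers were matched to GENCODE release 44 mapped to GRCh37 (58662 of 60660), and the 1954 unmatched identifiers, with 2.25% to 2.61% of the counts of the 4 libraries, were left out with 44 copies on chromosome Y. CPM, FPKM and fold changes were derived here from the counts.

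edgeR 4.0.16 (glmQLFit, TMM, model of 6 group means over all 12 libraries) under R 4.3.3 gave every adjusted p, after the analysis had been tested on simulated data. An exact permutation test of 2 against 2 libraries cannot go below a p of 0.333. For the comparison with each other knockdown, the highest of 5 p-values was adjusted over all genes. Named are CARM1, CDK4, E2F1 and CDKN1A, the 10 largest changes in each direction of either test with a mean of at least 50 counts, the 5 for lncRNA genes, and in each list up to 4 called members with the largest change plus those apart from each other knockdown. Other names are marked, and some genes that the rule names are not reported here. Members, lists and tests were chosen with earlier results of these data known. Sequences are from RefSeq (GRCh38.p14), with a promoter for 10395 of 12829 tested symbols. Alternatives were RLE scaling, DESeq2 1.42.0, counts without regard to strand, other filters and fold minimums, a replicate block, only the 2 groups, each library left out in turn and, added after the data were seen, corrections for GC content and gene span.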

Additional observations from a re-analysis of the deposited data

How the results depend on the processing

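Without a fold minimum 2962 genes were lower and 3030 higher than in siCTL, and 255 lower and 158 higher than in every other group. With a fold minimum of 2 the first counts were 125 and 174. DESeq2 called 165 lncRNA genes higher, against 299 by edgeR, and without siCTL replicate 2 the count was 186. With each library left out in turn, genes lower than in siCTL ranged from 1750 to 1984 and higher from 1673 to 2013, those apart from every other group from 128 to 185 and from 53 to 111, and lncRNA genes from 112 to 132 and from 186 to 233. The 53 was without siCARM1 replicate 2 and the cause was not tested. CARM1 ranged from -2.43 to -2.33 and the number of lists with a median above 0 from 16 to 18.

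No coding gene followed through the alternatives changed direction. This is not stated for CCND1, GATAD2B, MTA2 and LUM, and single lncRNA genes were not followed. Of 1300 values of 101 coding genes 2 lost their call, SMAD9 at 0.25 with the correction for GC content and NFIB at 0.21 with that for gene span, and of 236 smallest differences 17 did, namely ANKRD63, ZCWPW1, IL17RE, PHF7 and SLC4A4 under DESeq2 and these 5 or IQCN with a siCTL or siCARM1 library left out. Of 429 medians of 33 lists 118 moved by more than the spread between the siCARM1 libraries, 42 of them under the 2 corrections. Replicate numbers did not pair the samples (correlation of deviations between groups -0.142 to 0.136). With the number as a replicate block 1856 genes were lower and 1912 higher (1843 and 1897 of them shared with the fit without it), 157 and 82 apart from every other group, and 152 and 306 lncRNA genes called. With 2 libraries a group, changes in genes of few counts are known to the precision of their standard errors only.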
